A study of Homo sapiens with 4 samples.

Results

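The genes described here write, read and erase acetyl groups on histones: 13 acetyltransferases and p160 coactivators, 18 bromodomain proteins, and 17 deacetylases. They are 48 of the 58233 genes in the deposited count table, chosen by symbol from a list of such genes, and 46 of them were among the 13179 genes tested. RNA-seq counts came from MCF10AT cells, a mammary epithelial line of the MCF10A lineage carrying oncogenic HRAS, in 2 libraries labelled Bromo+/- and 2 libraries labelled Non-target control. The name Bromo is not spelled out further in the labels. The series title concerns EP300 knockdown and the protocols describe stable lentiviral shRNA under puromycin selection, but the genotype of these 4 samples names no shRNA, so what distinguishes the groups is known only by those 2 labels. The labels give all 4 samples the same DMEM/F12 medium, with insulin, hydrocortisone, cholera toxin, growth factor (EGF) and horse serum. No label says whether the libraries of a group came from separate cultures or clones. The p-values therefore measure the spread between these libraries, which may be technical. The columns of each group share a header stem, Br2 or WT6, which no label explains. Were each stem a single line or clone, a difference between lines could not be told apart from that between groups.

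Acetylation of lysines on histone tails loosens the contact of histones with DNA and marks active promoters and enhancers. Acetyltransferases such as p300, CBP and the GNAT and MYST enzymes place the mark, bromodomains bind it and recruit remodelling or transcription machinery, and the zinc-dependent HDACs and NAD-dependent sirtuins remove it. In mammary epithelium p300 and CBP act at enhancers together with lineage transcription factors, while HDAC complexes serve repressors of the epithelial programme.

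Libraries held 10835237 to 11975396 counts, and levels are given as CPM, the counts of a gene relative to its library total after TMM scaling between libraries. A difference is called when its adjusted p is under 0.05 in edgeR's quasi-likelihood test over 13179 genes. Each log2 fold change sets the libraries labelled Bromo+/- over the controls and carries its standard error (SE). The 10 epithelial markers read as a check of the labelled cell type summed to 1388 and 1312 CPM in the libraries labelled Bromo+/-, against 11304 and 10885 CPM in the controls. All 10 were lower, with KRT14 at 0 counts in the libraries labelled Bromo+/-. Of 9 fibroblast markers 2 were higher, 1 was lower and 6 had too few counts to test. Their sum was 106 and 103 CPM under Bromo+/- against 43.5 and 41.4 CPM in controls. DCN made up most of the former, at 80.2 and 78.0 CPM under Bromo+/- against 0.764 and 0.692 CPM in controls. FAP was the lower marker, at 16.9 and 16.7 CPM under Bromo+/- against 39.0 and 37.7 CPM in controls. COL3A1 and LUM were at 0 in all 4 libraries. Of 6 leukocyte markers CD14 was lower (log2 fold change -0.74, adjusted p = 0.00163), 5 had too few counts to test, and CD3E was at 0, their sum being 3.19 to 4.08 CPM in the libraries labelled Bromo+/- and 5.45 to 6.78 CPM in the controls. Of 4 endothelial markers KDR was higher (1.40, adjusted p = 0.00416), 1 was not called, 2 had too few counts to test and VWF was at 0, their sum being 3.34 to 3.81 CPM under the Bromo+/- label and 2.94 to 4.49 CPM in the controls. The part of these marker differences in the results that follow was not tested, and in bulk RNA fewer cells of a type cannot be told apart from less RNA per cell.

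Of the 48 genes, 46 had enough counts to test, and 28 of these (60.9%) were called, against 53.5% of all genes tested. The direction was mostly upward: 22 genes (47.8%) were higher, against 26.4% of all genes, and 6 (13%) were lower, against 27.1% of all genes. With library size alone as the scaling the split was 28 higher and 1 lower, and over all genes 61.3% of calls were then higher instead of 49.4%. The counts were 14 higher and 2 lower with the DESeq2 Wald test, which over all genes called 2292 higher and 2592 lower. They were 11 higher and 3 lower without the genes whose exons overlap another gene with counts, where fewer genes are counted. Without control replicate 1 they were 15 higher and 1 lower. The changes were small: the median absolute log2 fold change was 0.22 among the 46 genes and 0.28 among all genes tested. Of the 46 genes, 2 reached 2-fold (KAT2B upward and HDAC9 downward), against 15.0% of all genes called at that size. Libraries of the groups did not overlap for 37 of the 46 genes (80.4%), against 75.2% of all genes. The remaining 2 genes had too few counts to test. CECR2 had 1 and 4 counts under the Bromo+/- label against 1 and 0 in the controls. HDAC10 had 17 and 9 counts under that label against 5 and 2 in the controls, counted on only 44.2% of its exon bases.

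**Figure D1:**
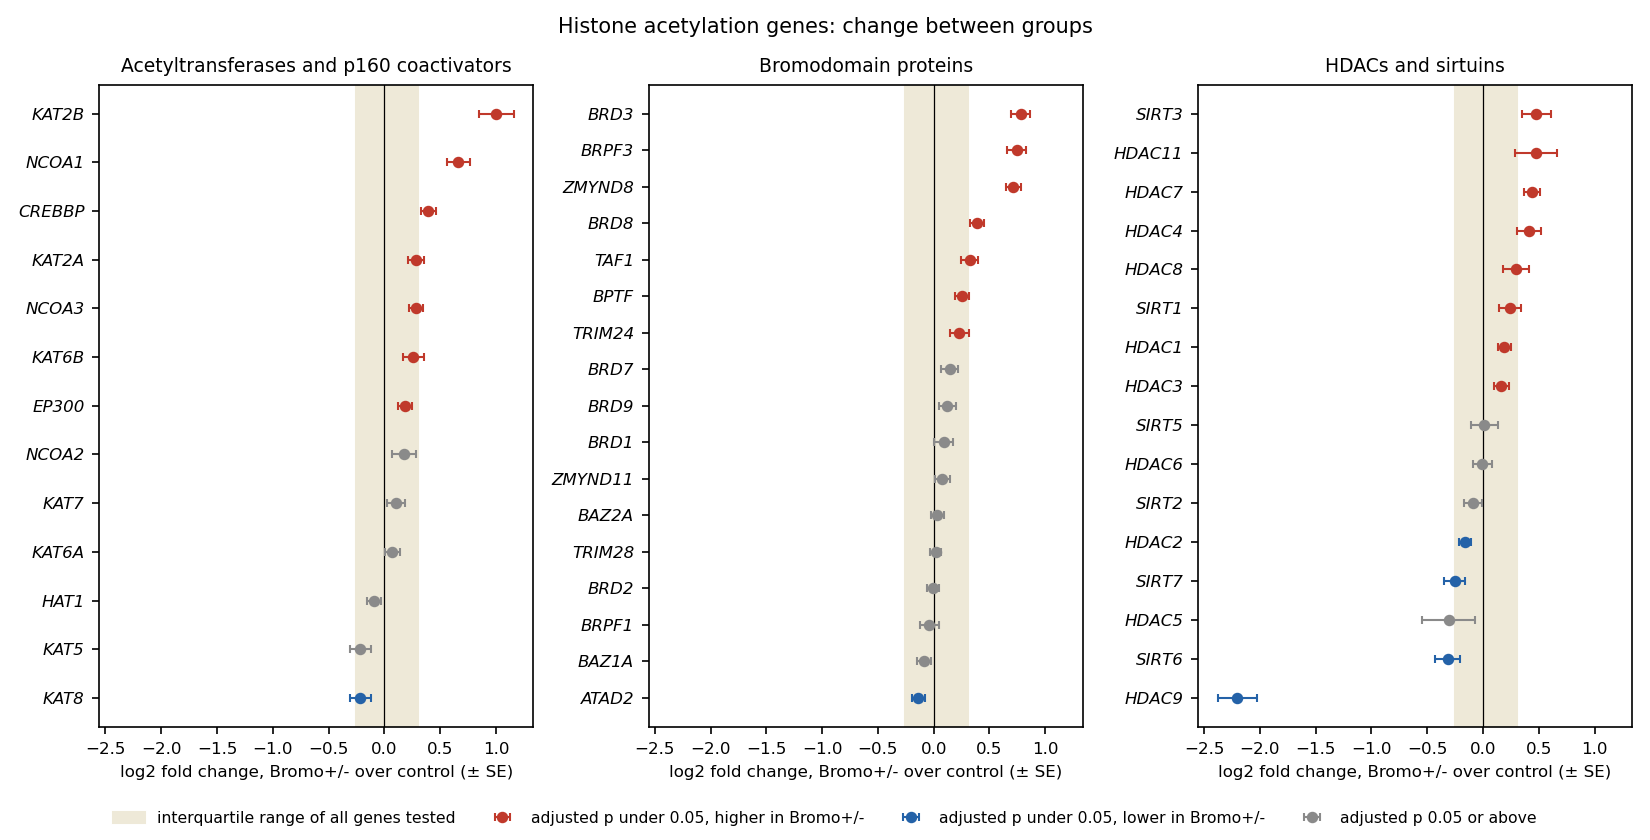
Log2 fold change of the libraries labelled Bromo+/- over control for the 46 tested genes, as points with bars of ± 1 SE (horizontal axis, log2 scale), in 3 panels for acetyltransferases and coactivators, bromodomain proteins, and deacetylases. Colours give the call, the shaded band spans the interquartile range of all genes tested (-0.26 to 0.31), and HDAC9 at -2.20 lies far outside the others.

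EP300, the gene of p300 and the target named in the series title, had more transcript, not less, under the Bromo+/- label. Both libraries labelled Bromo+/- held more of it, 121 and 126 CPM, than the controls with 106 and 111 CPM (located on chromosome 22, 41091786 to 41180079, GRCh38; log2 fold change 0.19, SE 0.06, adjusted p = 0.00701). Its paralogue CREBBP, which encodes CBP, stood at 107 and 101 CPM under Bromo+/-, against 75.5 and 82.8 CPM in the controls (located on chromosome 16, 3725054 to 3880726; log2 fold change 0.39, SE 0.07, adjusted p = 7.13e-08). Neither gene's groups overlapped, and both were higher in each library labelled Bromo+/- than in each control library, as were 37.8% of all genes. Per kilobase of exon, EP300 was the more abundant transcript in every library, but its share of the pair was 58.8% and 61.0% in the libraries labelled Bromo+/-, against 63.9% and 62.7% in the controls. The 2 genes summed to 16.7 and 16.8 CPM per kilobase under the Bromo+/- label, against 13.5 and 14.3 in the controls. EP300 lost its call by the Wald test of DESeq2 (adjusted p = 0.0639) and without control replicate 1 (log2 fold change 0.15, adjusted p = 0.162, edgeR). The CREBBP call held under all 11 alternatives. Counts per gene do not resolve exons, alleles or protein. A change confined to part of a gene or to 1 allele might not show in them, and whether there is such a change was not tested.

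Among the GNAT enzymes, KAT2B had the largest rise of the 46 genes tested. KAT2B encodes PCAF, the partner enzyme of p300 and CBP, and stood at 12.3 and 14.3 CPM in the libraries labelled Bromo+/-, against 6.02 and 7.18 CPM in the controls (log2 fold change 1.00, SE 0.16, adjusted p = 2.81e-09). KAT2A, which encodes GCN5, the catalytic subunit of the SAGA and ATAC complexes, stood at 94.4 and 85.2 CPM under Bromo+/- against 74.8 and 72.8 CPM in controls (log2 fold change 0.28, SE 0.07, adjusted p = 0.000156). Both enzymes were thus higher with no overlap between groups, as were 37.8% of all genes. KAT2A remained the far more abundant. The ratio of KAT2B to KAT2A per kilobase was 0.0779 and 0.101 in the libraries labelled Bromo+/-, against 0.0480 and 0.0589 in the controls. HAT1, which acetylates newly made histone H4 before it enters chromatin, was not called (114 and 113 CPM under Bromo+/- against 126 and 116 CPM in controls; log2 fold change -0.09, 95% interval -0.21 to 0.03). Its share of the 3 GNAT transcripts per kilobase was 35.7% and 37.4% under Bromo+/-, against 44.2% and 42.8% in the controls.

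The MYST enzymes moved little and in opposite directions. KAT6B, which encodes MORF, stood at 33.3 and 32.3 CPM in the libraries labelled Bromo+/-, against 29.3 and 25.7 CPM in the controls (log2 fold change 0.26, SE 0.09, adjusted p = 0.0132). KAT8, which encodes MOF, the acetyltransferase of the MSL and NSL complexes, stood at 27.6 and 27.0 CPM under Bromo+/- against 33.1 and 30.5 CPM in controls (log2 fold change -0.22, SE 0.09, adjusted p = 0.0412). KAT5, which encodes TIP60 of the NuA4 complex, had 23.5 and 26.2 CPM under Bromo+/- against 29.1 and 28.4 CPM in controls. It just missed the threshold (log2 fold change -0.21, 95% interval -0.41 to -0.02, adjusted p = 0.0549). KAT5 shares 29.9% of its exon bases with RNASEH2C on the opposite strand, so its counts come from the rest. The groups of KAT5, KAT6B, KAT7 and KAT8 did not overlap (80% of the 5 MYST genes, against 75.2% of all genes). The largest of these differences was 1.20-fold (KAT6B). KAT6A (MOZ; log2 fold change 0.07, 95% interval -0.06 to 0.20) and KAT7 (HBO1; 0.10, -0.06 to 0.27) were not called. The call for KAT8 held under 3 of the 11 alternatives and ended on leaving out any library (adjusted p = 0.0517 to 0.291, edgeR). That for KAT6B ended without Bromo+/- replicate 1 (0.0619), without control replicate 2 (0.314) and with the DESeq2 Wald test (0.161). KAT5 was called without Bromo+/- replicate 2 (log2 fold change -0.30, adjusted p = 0.0234), with the replicate number as a block (0.0442) and with the size factors of DESeq2.

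All 3 p160 coactivators, which bind nuclear receptors and bring p300 and CBP to them, had higher means. NCOA1 stood at 26.4 and 29.1 CPM in the libraries labelled Bromo+/-, against 17.3 and 17.6 CPM in the controls (log2 fold change 0.66, SE 0.11, adjusted p = 1e-08). NCOA3, amplified in some breast cancers, stood at 111 and 118 CPM under Bromo+/- against 95.1 and 93.2 CPM in controls (log2 fold change 0.28, SE 0.06, adjusted p = 5.39e-05). The groups of NCOA1 and NCOA3 did not overlap, as with 75.2% of all genes, and both calls held under every alternative. NCOA2 had 24.5 and 24.3 CPM under Bromo+/- against 23.2 and 20.1 CPM in controls and was not called (log2 fold change 0.18, 95% interval -0.03 to 0.38). NCOA3 made up 70.9% and 71.1% of the p160 transcripts per kilobase under the Bromo+/- label, against 72.6% and 73.5% in the controls, and NCOA1 made up 16.2% and 16.8% under Bromo+/- against 12.7% and 13.4% in controls.

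The sequence before the start of genes whose calls held under every alternative is given here for 3 genes that rose and for HDAC9, to show how their base composition and motifs vary. The windows printed are examples chosen after their composition was seen. Each is the 250 bases upstream of a RefSeq start (GRCh38.p14), 5′ to 3′ on the gene's strand. None holds an exon base that the deposited table gives for the same gene, and exons of other genes were not checked. Capitals mark GGGCGG (the GC box), CCAAT (a box named after its letters), TGACG (the core of the cyclic AMP response element) and CACCTG (the E2 box), each searched on both strands with overlaps merged.
KAT2A, chr17:42121368-42121617, - strand: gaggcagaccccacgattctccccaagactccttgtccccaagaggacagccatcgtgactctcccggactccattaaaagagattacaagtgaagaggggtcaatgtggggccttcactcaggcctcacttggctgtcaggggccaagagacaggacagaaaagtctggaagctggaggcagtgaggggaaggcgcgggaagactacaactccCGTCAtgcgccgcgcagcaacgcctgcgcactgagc
NCOA1, chr2:24491004-24491253, + strand: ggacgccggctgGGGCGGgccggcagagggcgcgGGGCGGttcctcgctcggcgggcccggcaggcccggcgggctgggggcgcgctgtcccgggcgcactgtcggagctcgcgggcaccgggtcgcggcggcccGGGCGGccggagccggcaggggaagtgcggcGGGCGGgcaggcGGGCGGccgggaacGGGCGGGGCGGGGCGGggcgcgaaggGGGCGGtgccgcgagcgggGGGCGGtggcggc
BRPF3, chr6:36196494-36196743, + strand: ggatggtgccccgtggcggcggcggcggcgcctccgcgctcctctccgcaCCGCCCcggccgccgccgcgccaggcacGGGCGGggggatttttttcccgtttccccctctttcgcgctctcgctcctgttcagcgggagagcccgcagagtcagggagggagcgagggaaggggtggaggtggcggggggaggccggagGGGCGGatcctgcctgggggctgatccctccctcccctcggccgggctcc
HDAC9, chr7:18086575-18086824, + strand: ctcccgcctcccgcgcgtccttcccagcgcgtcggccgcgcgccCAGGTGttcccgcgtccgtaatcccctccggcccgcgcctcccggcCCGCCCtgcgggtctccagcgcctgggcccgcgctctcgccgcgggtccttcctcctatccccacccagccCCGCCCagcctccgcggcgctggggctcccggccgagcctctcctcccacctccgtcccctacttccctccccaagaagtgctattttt
HDAC9, chr7:18495460-18495709, + strand: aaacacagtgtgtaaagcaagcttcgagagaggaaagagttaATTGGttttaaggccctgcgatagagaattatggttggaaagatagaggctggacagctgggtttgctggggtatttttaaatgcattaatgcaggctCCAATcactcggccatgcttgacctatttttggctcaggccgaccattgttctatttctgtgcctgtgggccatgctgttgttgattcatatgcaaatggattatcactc
RefSeq windows were matched for 38 of the 48 genes, 72 windows in all, with a median of 65.8% G or C bases, against 58.0% over 35116 windows of all genes. Starts of 1 gene could differ widely, in genes that rose as in HDAC9. HDAC9 has 5 windows of 38.4% to 75.2% G or C, 3 of them free of HDAC9 exon bases. Of these 3, the outermost holds 75.2% G or C, 2 GC boxes and an E2 box, and the inner ones hold 44.0% and 38.4%, no GC box and 2 CCAAT motifs each. NCOA1 has 3 windows of 27.2% to 87.2% G or C. The window printed holds 10 GC boxes in 87.2% G or C, and a second window free of NCOA1 exon bases holds 3 in 74%. The single BRPF3 window holds 3 GC boxes in 76.0% G or C, and the single KAT2A window holds none and 1 TGACG in 58.8%. The GC box occurs in 55.6% of the windows of the listed genes and 42.6% of all windows, CCAAT in 19.4% and 32.0%, TGACG in 19.4% and 21.2%, and the E2 box in 12.5% and 17.5%. These are matches of letters only, and gene-level counts do not show which start was used.

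Among bromodomain proteins, 7 of 17 tested genes were higher, 1 was lower and 9 were not called. That is 47.1% called, against 53.5% of all genes, with 41.2% higher against 26.4% and 5.88% lower against 27.1%. BRD3, a BET protein that tethers transcription elongation factors to acetylated chromatin, stood at 46.9 and 45.6 CPM in the libraries labelled Bromo+/-, against 25.1 and 28.7 CPM in the controls (log2 fold change 0.78, SE 0.09, adjusted p = 1.45e-15). BRD2, its more abundant relative, had 252 and 249 CPM under Bromo+/- against 257 and 247 CPM in controls, and its groups overlapped (log2 fold change -0.01, 95% interval -0.11 to 0.10). BRD3 made up 17.7% and 17.4% of this pair per kilobase in the libraries labelled Bromo+/-, against 10.1% and 11.8% in the controls. Of the BRD3 exon bases 18.6% are shared with the antisense gene BRD3OS, which itself had 1048 counts under the Bromo+/- label, against 356 in the controls. The table holds no reads from shared exon bases: 0 of 191 genes lying wholly within exons of a well-counted gene on the opposite strand had a count, and 0 of 44 on the same strand. The BRD3 counts therefore come from the other 81.4% of its exon bases, where reads of unannotated antisense transcript cannot be told apart.

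BRPF3 and its relatives are scaffolds that join MYST enzymes to chromatin. BRPF3, a partner of KAT7, stood at 50.5 and 46.5 CPM in the libraries labelled Bromo+/-, against 28.6 and 29.4 CPM in the controls (log2 fold change 0.74, SE 0.09, adjusted p = 5.44e-15). BRPF1, a partner of KAT6A and KAT6B, had 39.9 and 43.1 CPM under Bromo+/- against 41.9 and 43.2 CPM in controls (log2 fold change -0.04, 95% interval -0.20 to 0.12). BRD1 had 41.6 and 42.4 CPM under Bromo+/- against 39.5 and 39.3 CPM in controls and was not called (log2 fold change 0.09, 95% interval -0.07 to 0.25). The ratio of BRPF3 to BRPF1 per kilobase was 1.05 and 0.893 in the libraries labelled Bromo+/-, against 0.564 and 0.563 in the controls, so BRPF1 was the larger transcript in the controls and the 2 were near parity under the Bromo+/- label.

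ZMYND8, a reader of acetylated histones that works with HDAC complexes in repression, had the smallest adjusted p of the genes that rose. It stood at 119 and 116 CPM in the libraries labelled Bromo+/-, against 72.5 and 70.6 CPM in the controls (located on chromosome 20, 47209214 to 47356889; log2 fold change 0.71, SE 0.07, adjusted p = 3.04e-21). ZMYND11, a relative that binds methylated histone H3 in gene bodies, had 80.5 and 87.2 CPM under Bromo+/- against 78.7 and 80.0 CPM in controls and was not called (log2 fold change 0.08, 95% interval -0.06 to 0.21). BRD8, a subunit of the NuA4 complex, stood at 137 and 144 CPM under Bromo+/- against 110 and 105 CPM in controls (log2 fold change 0.39, SE 0.06, adjusted p = 7.79e-09). Smaller rises were called for 3 genes. TAF1, the largest subunit of TFIID, stood at 53.6 and 58.4 CPM under Bromo+/- against 41.5 and 47.7 CPM in controls (log2 fold change 0.32). BPTF of the NURF remodeller stood at 115 and 119 CPM under Bromo+/- against 92.6 and 103 CPM in controls (0.26). TRIM24, a coregulator of nuclear receptors, stood at 37.6 and 42.3 CPM under Bromo+/- against 32.9 and 35.0 CPM in controls (0.23). The calls for TAF1 and BPTF ended without control replicate 1 (adjusted p = 0.0777 and 0.106, edgeR). That for TRIM24 ended without that library (0.194), without Bromo+/- replicate 2 (0.227) and with the DESeq2 Wald test (0.171). ATAD2, an ATPase with a bromodomain linked to proliferation, was the lower gene of the group, at 173 and 185 CPM under Bromo+/- against 191 and 203 CPM in controls (log2 fold change -0.14, SE 0.06, adjusted p = 0.0293). Its call ended without Bromo+/- replicate 1 (0.197), without control replicate 1 (0.0562) or 2 (0.369), with upper quartile scaling (0.244), with library size alone (0.432) and with the DESeq2 Wald test (0.124).

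The other bromodomain genes showed no called difference. TRIM28, the corepressor of KRAB zinc finger proteins, was by far the most abundant of the 48 transcripts per kilobase (191 CPM per kilobase under the Bromo+/- label, against 189 in the controls), and its fold change was near 0 (log2 0.02, 95% interval -0.08 to 0.12). BAZ2A of the NoRC complex (0.03, -0.08 to 0.15) and BAZ1A of the ACF remodeller (-0.09, -0.21 to 0.03) had overlapping groups. BRD7 of the PBAF complex (0.15, -0.00475 to 0.30) and BRD9 of the non-canonical BAF complex (0.12, -0.03 to 0.27) had higher values in both libraries labelled Bromo+/-, as did 37.8% of all genes. BRD7 shares 42.3% of its exon bases with ADCY7 on the opposite strand, so its counts come from fewer bases than its length implies. BRD7 was called without Bromo+/- replicate 1 (adjusted p = 0.0256, edgeR), and BAZ1A without Bromo+/- replicate 2 (0.017).

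**Figure D2:**
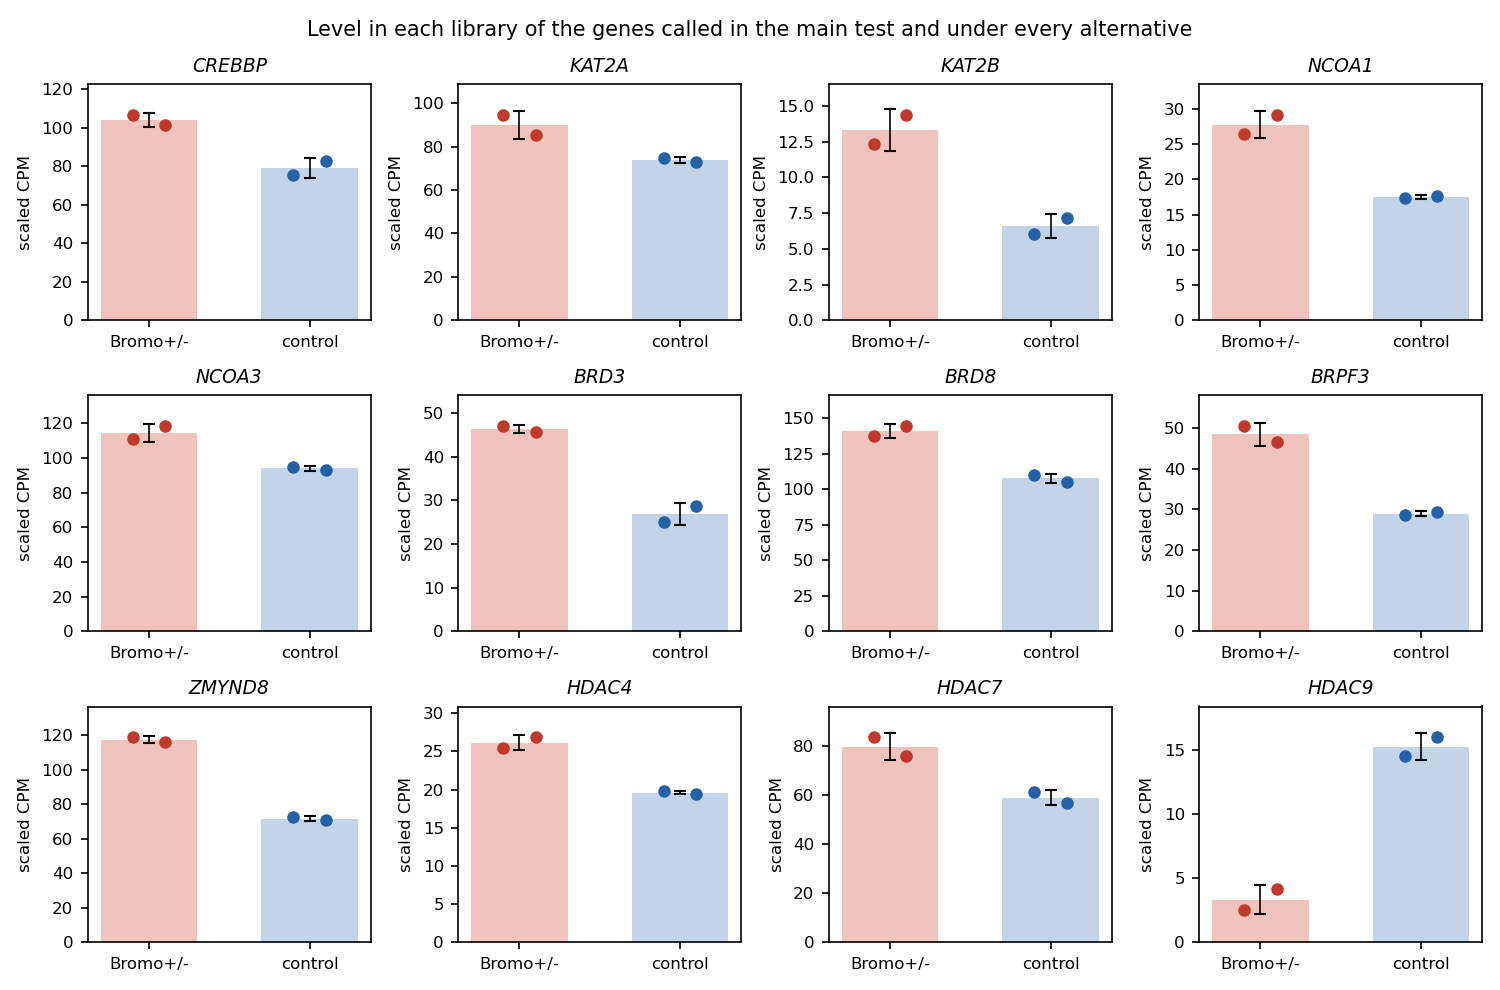
Scaled CPM (vertical axes, each starting at 0) in every library of the 12 genes whose call held in the main test and under all 11 alternatives, with the libraries labelled Bromo+/- left of the controls. Points are libraries, bars are group means and whiskers are ± 1 SD (n = 2 each). The points of the groups are apart in every panel, for genes chosen by their calls in these same libraries. Over all genes tested 75.2% had groups apart. HDAC9 is the single gene lower in the libraries labelled Bromo+/-.

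Among deacetylases, 8 of 16 tested genes were higher, 4 were lower and 4 were not called. That is 75% called, against 53.5% of all genes, with 50% higher against 26.4% and 25% lower against 27.1%. HDAC9, a class IIa enzyme that binds MEF2 factors and represses their targets, fell most of the 46 genes tested. It had 31 and 47 counts under the Bromo+/- label, against 152 and 185 in the controls, or 2.53 and 4.16 CPM under Bromo+/- against 14.5 and 16.0 CPM in controls (located on chromosome 7, 18086949 to 19002416; log2 fold change -2.20, SE 0.18, adjusted p = 5.35e-27). Over all alternatives its log2 fold change lay between -2.59, without Bromo+/- replicate 2, and -1.88, without Bromo+/- replicate 1, and the adjusted p was 7.33e-14 with the DESeq2 Wald test and 4.79e-10 with the replicate number as a block. HDAC7 and HDAC4, of the same class, were higher. HDAC7 stood at 83.5 and 75.6 CPM under Bromo+/- against 61.1 and 56.6 CPM in controls (log2 fold change 0.44, SE 0.07, adjusted p = 2.81e-08). HDAC4 stood at 25.4 and 26.8 CPM under Bromo+/- against 19.8 and 19.5 CPM in controls (log2 fold change 0.41, SE 0.10, adjusted p = 0.000326). HDAC5 was scarce, with 3.50 and 2.92 CPM under Bromo+/- against 4.49 and 3.55 CPM in controls, and was not called (log2 fold change -0.31, 95% interval -0.78 to 0.16).

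The make-up of class IIa therefore differed while HDAC7 dominated throughout. HDAC9 made up 1.25% and 2.20% of class IIa transcripts per kilobase in the libraries labelled Bromo+/-, against 8.74% and 10.2% in the controls. HDAC7 made up 78.9% and 76.4% under Bromo+/- against 70.2% and 69% in controls. The class summed to 12.0 and 11.2 CPM per kilobase under the Bromo+/- label, against 9.88 and 9.31 in the controls, so its total was higher although HDAC9 was lower. The MEF2 factors that class IIa enzymes bind were tested as MEF2A (log2 fold change 0.04, adjusted p = 0.737) and MEF2D (-0.08, adjusted p = 0.452), neither called, and MEF2B and MEF2C had too few counts to test.

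**Figure D3:**
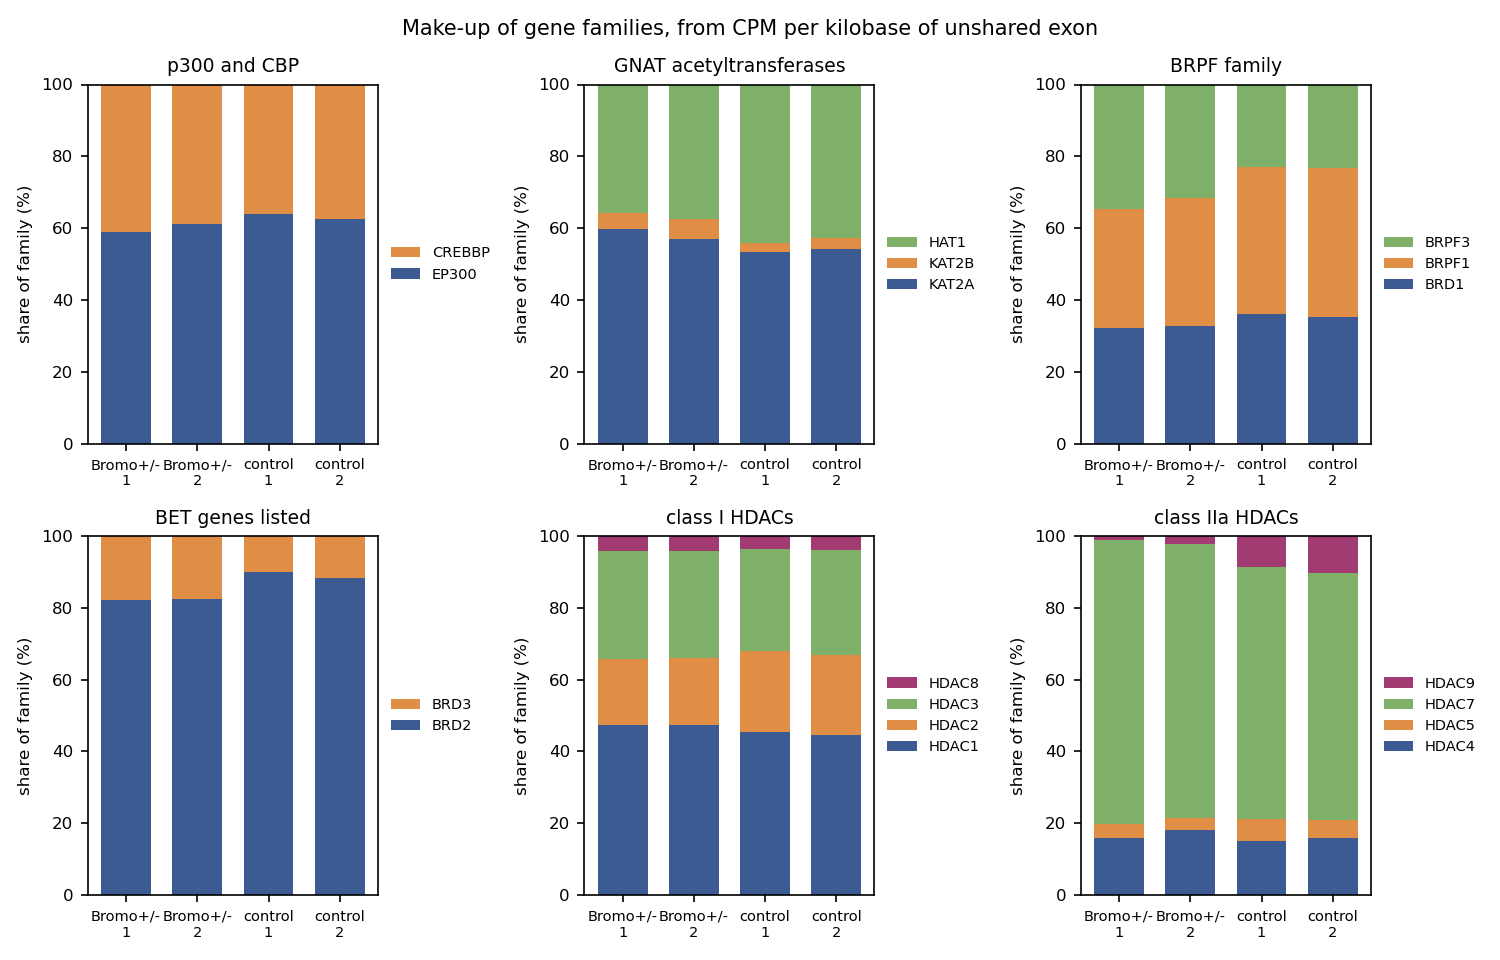
Share of each gene in its family's summed CPM per kilobase of unshared exon (vertical axes, percent) in each of the 4 libraries, for p300 and CBP, the GNAT enzymes, the BRPF family, the listed BET genes and the class I and class IIa HDACs. HDAC9 takes 1.25% and 2.20% of class IIa under the Bromo+/- label, against 8.74% and 10.2% in the controls, and BRPF3 takes 34.6% and 31.7% of its family against 23.1% and 23.3%.

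The class I enzymes, the catalytic subunits of most nuclear corepressor complexes, were all called (4 of 4, against 53.5% of all genes). The largest difference was 1.23-fold (HDAC8). HDAC1 stood at 163 and 163 CPM in the libraries labelled Bromo+/-, against 149 and 136 CPM in the controls (log2 fold change 0.19, SE 0.06, adjusted p = 0.00318). HDAC2, which shares the NuRD, SIN3 and CoREST complexes with HDAC1, went the other way, at 244 and 247 CPM under Bromo+/- against 286 and 262 CPM in controls (log2 fold change -0.16, SE 0.05, adjusted p = 0.00708). The ratio of HDAC1 to HDAC2 per kilobase was 2.59 and 2.56 in the libraries labelled Bromo+/-, against 2.02 and 2.02 in the controls, a ratio within each library that does not depend on the scaling between libraries. HDAC3, the enzyme of the NCoR complex, stood at 109 and 109 CPM under Bromo+/- against 99.3 and 95.3 CPM in controls (log2 fold change 0.17). HDAC8 stood at 19.9 and 19.2 CPM under Bromo+/- against 15.9 and 16.0 CPM in controls (0.30). Leaving out 1 library ended the call for HDAC1 (control replicate 2, adjusted p = 0.259, edgeR), HDAC2 (control replicate 1, 0.332), HDAC3 (control replicate 1, 0.0848, or 2, 0.268) and HDAC8 (Bromo+/- replicate 1, 0.1, control replicate 1, 0.112, or 2, 0.108). The DESeq2 Wald test did not call HDAC3 (0.125) or HDAC8 (0.201), HDAC3 was not called without the low-count filter (0.0514), and HDAC2 was not called with upper quartile scaling (0.106) or library size alone (0.225).

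Outside these classes, HDAC11, the lone class IV enzyme, stood at 7.5 and 7 CPM in the libraries labelled Bromo+/-, against 6.11 and 4.41 CPM in the controls (log2 fold change 0.47, SE 0.19, adjusted p = 0.0240). That call ended without Bromo+/- replicate 1 (0.12), without control replicate 2 (0.423) and with the DESeq2 Wald test (0.242). HDAC6, a cytoplasmic enzyme that deacetylates tubulin, had 34.7 and 35.8 CPM under Bromo+/- against 34.8 and 35.9 CPM in controls, a log2 fold change of 0.00 with a 95% interval of -0.18 to 0.17. HDAC10 shares 55.8% of its exon bases with MAPK12 on the same strand, and its count of 26 under the Bromo+/- label, against 7 in the controls, comes from the other 44.2%.

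The sirtuins split by direction. SIRT3, the main deacetylase of mitochondria, stood at 16.2 and 17.3 CPM in the libraries labelled Bromo+/-, against 10.2 and 13.7 CPM in the controls (log2 fold change 0.48, SE 0.13, adjusted p = 0.000795). SIRT1, which deacetylates histones and transcription factors in the nucleus, stood at 25.9 and 29.8 CPM under Bromo+/- against 22.0 and 24.9 CPM in controls (0.24, SE 0.10, adjusted p = 0.0324). SIRT6 and SIRT7, which act on chromatin, were lower. SIRT6 stood at 16.6 and 16.4 CPM under Bromo+/- against 22.1 and 19.2 CPM in controls (-0.32, SE 0.11, adjusted p = 0.0133). SIRT7 stood at 30.2 and 27.1 CPM under Bromo+/- against 35.4 and 33.1 CPM in controls (-0.25, SE 0.09, adjusted p = 0.0138). These 4 of the 6 sirtuins (66.7%) had groups that did not overlap, against 75.2% of all genes. The summed level of the 6 sirtuins, 29 and 30.2 CPM per kilobase under the Bromo+/- label, against 30.8 and 30.2 in the controls, was close between groups. SIRT2 (-0.09, 95% interval -0.25 to 0.07) and SIRT5 (0.01, -0.23 to 0.25) were not called. Without control replicate 1 none of the 4 calls held (adjusted p = 0.136 for SIRT3, 0.349 for SIRT1, 0.226 for SIRT6 and 0.15 for SIRT7, edgeR), nor with the DESeq2 Wald test (0.0559, 0.233, 0.148 and 0.14 in that order). Those for SIRT1 and SIRT7 also ended without Bromo+/- replicate 2 (0.337 and 0.139). SIRT1 was not called without the low-count filter (0.0663). Library size alone ended the calls for SIRT6 (0.0755) and SIRT7 (0.11), and upper quartile scaling that for SIRT7 (0.0657).

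Most of these enzymes work in large complexes, so 125 further genes in 13 lists of subunits, binding partners and suppliers of acetyl-CoA and NAD were read from the same test. Of 119 tested, 39 were higher (32.8%, against 26.4% of all genes) and 19 were lower (16%, against 27.1%). The other 61 were not called (48.7% called, against 53.5% of all genes), and the median log2 fold change was 0.06. The split was 55 higher and 12 lower with library size alone. Of 43 of these genes taken by smallest adjusted p, 35 kept their call under every alternative that gave a value, and genes named here that did not are marked so.

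Among complexes built around HDACs, NuRD, SIN3 and CoREST had called genes in both directions. NCoR had 2 higher and none lower of 4 (50% called). MiDAC had none higher and 2 lower of 3 (66.7% called), against 53.5% called of all genes. TBL1X, an exchange factor of the NCoR complex, stood at 29.9 and 29.1 CPM in the libraries labelled Bromo+/-, against 7.64 and 8.21 CPM in the controls (log2 fold change 1.89, SE 0.12, adjusted p = 4.31e-36). In CoREST, PHF21A, which reads unmethylated histone H3, stood at 23.6 and 26.0 CPM under Bromo+/- against 8.98 and 8.13 CPM in controls (1.54, SE 0.13, adjusted p = 1.8e-25). HMG20B stood at 61.7 and 55.5 CPM under Bromo+/- against 104 and 96.2 CPM in controls (-0.77, SE 0.07, adjusted p = 4.66e-22). PHF21A and HMG20B thus went in opposite directions. Of 12 NuRD genes 6 were higher (50%, against 26.4% of all genes), with MTA1 at 0.42. MBD2 alone was lower (-0.46), which is 8.33%, against 27.1% of all genes. Of 15 SIN3 genes 2 were higher (13.3%, against 26.4% of all genes). A further 4 were lower (26.7%, near the 27.1% of all genes), with SINHCAF at -0.53. Of these 6 calls, the lower one with the largest adjusted p was not put to the alternatives. The call for ARID4B held under 6 of the 11 alternatives (adjusted p = 0.179 with the DESeq2 Wald test). That for BRMS1 also held under 6 (0.156 with library size alone, edgeR), and that for SUDS3 under 9 (0.0609 with library size alone, edgeR). MIDEAS (-0.41) and DNTTIP1 (-0.35) of the 3 MiDAC genes were lower.

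Among subunits of acetyltransferase complexes, 7 of 22 SAGA and ATAC genes were higher (31.8%, against 26.4% of all genes) and none was called lower. Yet 3 of the 22 had lower values in both libraries labelled Bromo+/- than in either control, against 37.5% of all genes. In all 31.8% were called, against 53.5% of all genes, with the deubiquitinase USP22 at 0.47. In the list for HBO1 and MOZ 4 of 6 were higher (66.7%, against 26.4% of all genes). JADE2, a scaffold that directs KAT7 to histone H4, stood at 383 and 354 CPM under Bromo+/- against 188 and 187 CPM in controls (log2 fold change 0.97, SE 0.05, adjusted p = 1.73e-46). In the NuA4 list 1 of 14 was higher (EPC2), which is 7.14%, against 26.4% of all genes. A further 5 were lower (35.7%, against 27.1% of all genes), with YEATS4 at -0.40 and a list median of -0.01. The call for VPS72, 1 of the 5, held under 6 of the 11 alternatives (adjusted p = 0.134 with the DESeq2 Wald test). Lower genes of this list with a larger adjusted p than VPS72 were not put to the alternatives. The MSL and NSL list had 3 of 11 higher (27.3%, near the 26.4% of all genes) and 1 lower (9.09%, against 27.1%). In all 36.4% of this list were called, against 53.5% of all genes. Of the called genes, MSL1 held its call under 6 of the 11 alternatives and MSL2 under 9. Of 7 tested partners of p300 and CBP 5 were higher and CREB1 was lower (-0.41). That is 71.4% higher, against 26.4% of all genes, and 14.3% lower, against 27.1%. CITED2, which competes for a p300 domain, stood at 41.8 and 42.9 CPM under Bromo+/- against 23.4 and 23.7 CPM in controls (0.85, SE 0.09, adjusted p = 1.24e-16). CITED4 stood at 32.8 and 28.9 CPM under Bromo+/- against 16.1 and 14.4 CPM in controls, and CRTC1 at 13 and 12.6 CPM under Bromo+/- against 5.06 and 7.61 CPM in controls. In the list of YEATS and DPF readers of acylated lysine all 4 tested genes were called higher, with MLLT3 at 1.07, against 26.4% of all genes. YEATS genes also stood in other lists, where YEATS2 of SAGA and ATAC was higher (0.28) and YEATS4 of NuA4 was lower (-0.40). DPF1, 1 of the 4 in that list, was not called by the Wald test of DESeq2 (adjusted p = 0.116) or on leaving out control replicate 2. The gene of these 4 with the largest adjusted p was not put to the alternatives.

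Suppliers of the cofactors were mixed. ACSS2, which makes acetyl-CoA from acetate in the nucleus and cytosol, stood at 39.9 and 44.5 CPM in the libraries labelled Bromo+/-, against 81.1 and 77.4 CPM in the controls (log2 fold change -0.91, SE 0.08, adjusted p = 1.61e-25). ACLY, which makes it from citrate, stood at 471 and 476 CPM under Bromo+/- against 575 and 575 CPM in controls (-0.28). ACSS1, the mitochondrial acetate enzyme, had 29 and 24 counts under the Bromo+/- label, against 2 and 4 counts in the controls, where it was near silent (log2 fold change 3.00, SE 0.48). In NAD synthesis NMNAT1 was higher (0.57) and NAPRT lower (-0.67). Over the 11 tested genes of this list 3 were higher (27.3%, against 26.4% of all genes). A further 4 were lower (36.4%, against 27.1%) and 4 were not called.

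**Figure D4:**
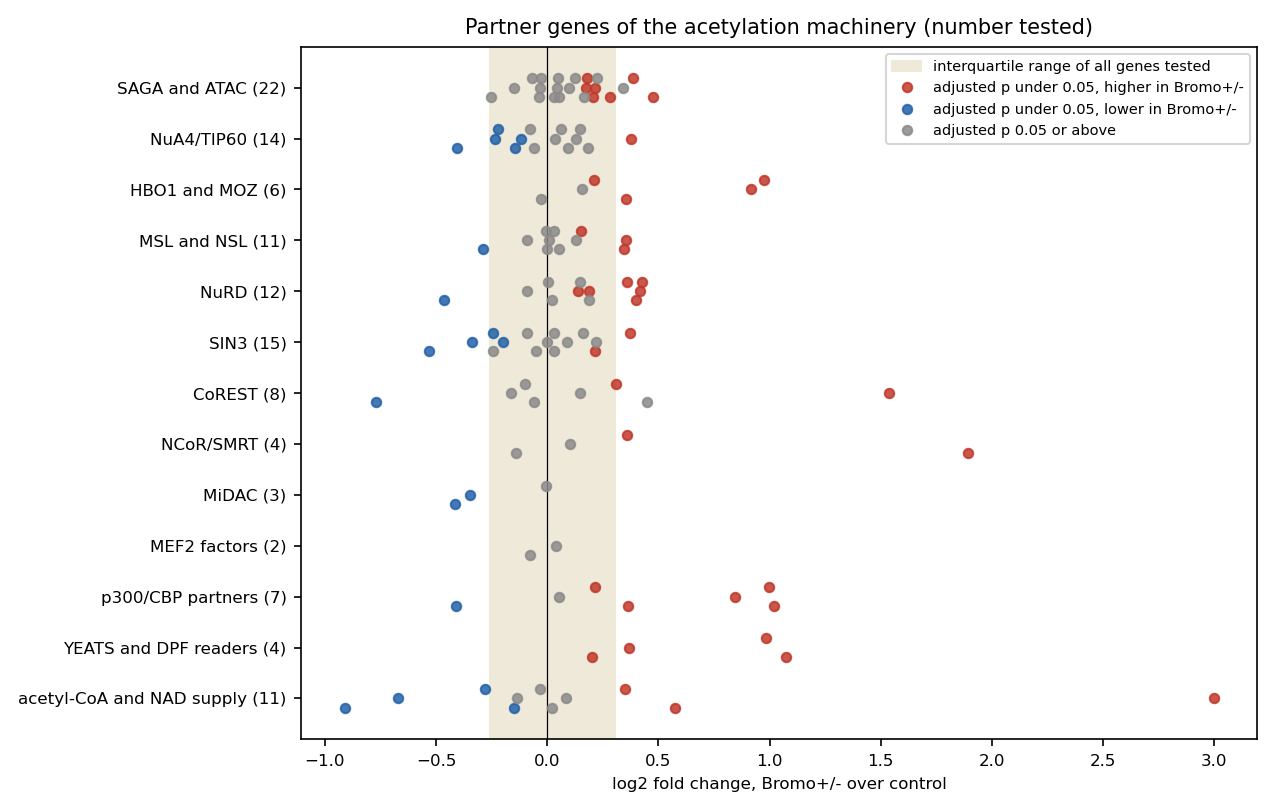
Log2 fold change of the libraries labelled Bromo+/- over control (horizontal axis) for 119 partner genes, 1 point per gene, in 13 lists with the number tested in brackets. Colours give the call and the shaded band the interquartile range of all genes tested; TBL1X (1.89), PHF21A (1.54) and ACSS1 (3.00) lie farthest to the right.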

How the data were processed

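The deposited table holds raw counts of reads, with no normalization, for each Ensembl gene. The submitters' processing notes name STAR as aligner, featureCounts 1.5.2 as counter and GRCh38 as build. The sources used here name no annotation release and no strand setting. The labels give a stranded kit, and the table holds no reads from exon bases shared by 2 genes on either strand. Columns were matched to samples by name, those beginning WT to the Non-target control, so every direction rests on that match. Replicate numbers pair no samples, since the labels tie them to nothing shared. Symbols were found for 57895 of 58233 identifiers.

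The analysis used edgeR 4.0.16 in R 4.3.3: filterByExpr left 13179 genes, TMM scaled the libraries, and the robust quasi-likelihood test had 2 residual degrees of freedom. Adjustment was by Benjamini-Hochberg over every tested gene, with 0.05 as the threshold. CPM per kilobase divides by the exon bases that no other gene shares, summed over all isoforms, and so understates short isoforms. Alternatives were size factors or the Wald test of DESeq2 1.42.0, scaling by upper quartile or by library size alone, omitting the filter, at least 10 counts in every library, the replicate block, each library left out, and members with overlapping exons left out. Replicates differed by more than sampling noise (chi-square per degree of freedom 2.44 under the Bromo+/- label and 1.56 in the controls), so none was counted as a copy. In counts simulated on these 4 libraries, 12726 of 12925 genes were unchanged. The test called 44 of 66 genes changed by 0.5 (log2), 61 of 67 changed by 1 and 10 of the 12726 unchanged genes. In the data 53.5% of the genes tested were called, so these rates may not hold for them.

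The members and the 13 partner lists were chosen with earlier results of these data known. All 48 genes are named, with values per library for EP300, CREBBP, called genes and their relatives, and at most 3 higher and 3 lower genes per partner list by smallest adjusted p. MEF2A and MEF2D were named besides, after their values were seen. Exon overlaps of partner genes were not examined. In a library 3 counts stand at 0.245 to 0.287 CPM.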

Additional observations from a re-analysis of the deposited data

How the results depend on the processing

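Of the 28 called genes, 12 (11 higher, 1 lower) kept call and direction under all 11 alternatives to scaling, filter, test, block and libraries, and 16 lost the call under at least 1. Of the 18 not called, 8 were called under at least 1. The count of higher genes was 22, with 14 by the DESeq2 Wald test. It was 11 without genes whose exons overlap another gene with counts, where fewer genes are counted. The count of lower genes was 6, with 2 by upper quartile scaling, 1 by library size alone, 2 by the DESeq2 Wald test and 3 without overlapping genes, where fewer genes are counted. Leaving out 1 library at a time gave 15 to 21 higher and 1 to 6 lower genes, 5551 to 6641 called genes in all against 7055, and 28 to 39 higher and 15 to 20 lower partner genes against 39 and 19. Lower partner genes numbered 12 by library size alone and 11 by the DESeq2 Wald test. Causes were not tested. With the replicate block, counts were 22 higher, 7 lower and 7271 overall; deviations of libraries with the same number correlated at 0.05 across genes, and the block ended no call.

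Signs changed only for genes that were not called. The log2 fold change of BRD2 was 0.0501 by upper quartile scaling and 0.0745 by library size alone, that of BRPF1 0.0216 and 0.0459, and that of HDAC6 0.0552 and 0.0795. HDAC6 gave 9.52e-05 with at least 10 counts in every library, and SIRT5 gave -0.000854 without the filter. Leaving out 1 library at a time gave -0.000901 to 0.141 for KAT6A, -0.0423 to 0.0134 for BRD2, -0.0956 to 0.0164 for BRPF1, -0.00139 to 0.0594 for BAZ2A, -0.0571 to 0.0870 for TRIM28, -0.0308 to 0.0163 for HDAC6 and -0.0902 to 0.106 for SIRT5. The cause was not tested.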
